A study of Homo sapiens with 6 samples.

Results

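The CCN genes encode 6 secreted proteins of the extracellular matrix, CCN1 to CCN6, and all 6 were found by gene name among the 62700 rows of the count table from A673 cells. These rows were compared between 3 parental libraries and 3 libraries labelled as EWS-FLI1 knockout. A673 is a human cell line established from a Ewing sarcoma. EWS-FLI1 is the fusion oncoprotein of that tumour, made of a part of the RNA-binding protein EWSR1 and the DNA-binding part of the ETS factor FLI1. CCN proteins are matricellular: they sit in the matrix without building it, and bind integrins, heparan sulfate proteoglycans and growth factors, so that a cell reads its surroundings through them. A CCN protein is a string of domains, an IGFBP-type domain first, then a von Willebrand type C domain, a thrombospondin type 1 repeat and, in all but CCN5, a cystine knot. CCN1 and CCN2 are well known as quickly induced genes of mesenchymal cells, read as reporters of YAP and TEAD activity, of serum response factor (SRF) and of TGF-beta signalling.

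Both groups were grown in the same serum-containing medium, the parental group with the EWS-FLI1 wildtype genotype and the other with the EWS-FLI1 knockout genotype, and no other agent is given. The labels leave unsaid if the knockout cells are 1 clone or several, how long the fusion had been absent, or whether the libraries came from separate cultures, so each p-value reflects the scatter among these 6 libraries only, and that scatter may be technical. Totals were 324069161 to 342624492 estimated counts in the parental and 301605666 to 310465330 in the knockout libraries. Levels are CPM, the count of a gene per 1e6 counts of its library after TMM scaling, and a group is given by its mean ± SD over 3 libraries. Log2 fold changes are positive where the knockout was higher, and SE is their approximate standard error from edgeR's quasi-likelihood model. For genes of few counts this SE can fall below counting error. EWSR1 was lower in the knockout libraries (log2 fold change -0.26, SE 0.047). FLI1 was higher (0.38), with 39.6 to 41.9 CPM in parental and 50.8 to 54.8 CPM in knockout libraries. Scaling by total count in place of TMM moved the median of all genes by -0.42, so the rise of FLI1 may rest on the scaling. The counts of EWSR1 and FLI1 add the fusion to the normal transcripts and so do not check its loss. Of 9 Ewing sarcoma markers all fell, beside 37.5% of all tested genes. Their summed level went from between 3503 and 3600 CPM in parental to between 762 and 811 CPM in knockout libraries. The summed level of 12 markers of blood, endothelial, epithelial, melanocyte and liver cells was 5.73 to 6.81 CPM in parental and 22.0 to 23.7 CPM in knockout libraries, and 9 of the 12 stayed under 1 CPM in every library. Only 8 of these 12 were tested, of which 5 rose, 1 fell and 2 did not pass, beside 36.3% risen and 37.5% fallen of all tested genes. The macrophage marker CD68 had parental and knockout means of 5.07 and 12.2 CPM. Endothelial PECAM1 had 0.151 and 8.22 CPM and the leukocyte marker PTPRC 0.127 and 1.49 CPM. The part of this list in the CCN values was not tested.

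Across the family, 5 of 6 genes rose in the knockout libraries and CCN6 did not pass the test. The estimated rises ranged from 23.0-fold for CCN5 to 147-fold for CCN4. The value of CCN4 rests on 11 parental counts, and CCN4 could not be ordered against CCN2, nor CCN5 against CCN3. The background is broad, since 73.8% of the 28485 tested genes changed by edgeR's test (adjusted p under 0.05), 36.3% upward and 37.5% downward, so that a rise by itself is common here. Among the 28485 tested genes, 367 had a higher log2 fold change than CCN2, 747 than CCN1 and 1299 than CCN5. CCN3 and CCN4 are given no such place, since their parental counts are at the limit of detection. The groups did not overlap in any member, with knockout libraries higher for 5 genes (37.1% of all tested genes) and lower for CCN6 (39.5%). All 6 passed the filter on low counts, CCN3 and CCN4 only through their knockout libraries and CCN6 only through its parental ones, so that their difference is tied to being tested.

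**Figure D1:**
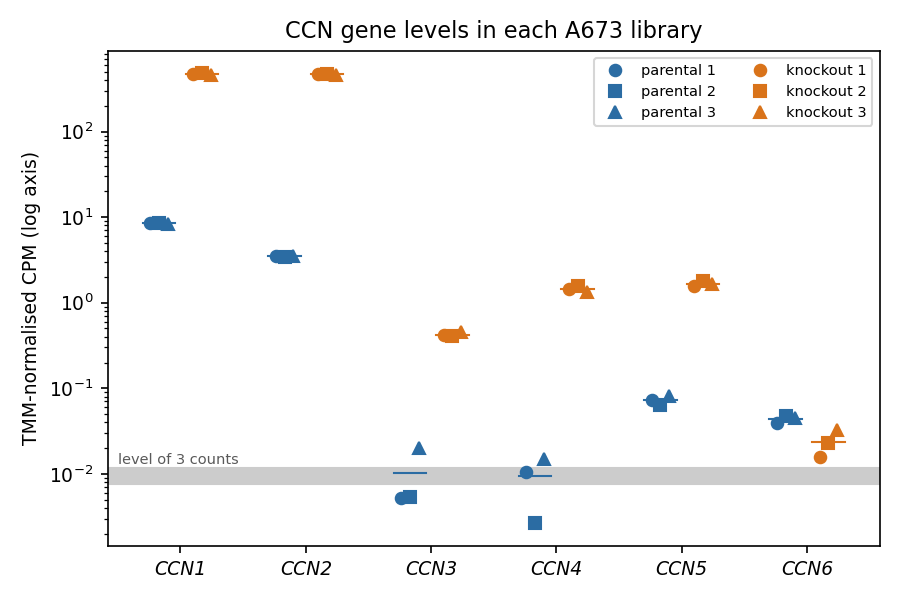
TMM-normalised CPM on a log axis for the 6 CCN genes in each of the 6 libraries, with a short line at each group's mean and a grey band at the level of 3 counts. CCN1 and CCN2 sit above 459 CPM in the knockout libraries, while the parental values of CCN3 and CCN4 scatter around the band.

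CCN1, also known as CYR61, is an adhesive ligand of integrins that is induced within a short time of serum or stretch. It lies on chromosome 1 from 85580761 to 85583950 (GRCh38, forward strand). Parental libraries 1 to 3 held 8.63, 8.46 and 8.32 CPM of it, against 468, 482 and 459 CPM in knockout libraries 1 to 3. Every knockout library was far above every parental one, and libraries of a group differed little. This is a 55.4-fold rise, or 5.79 on the log2 scale, with an SE of 0.058 (edgeR, adjusted p = 1.28e-26). With total counts only the log2 fold change was 5.37, so the SE does not cover the choice of scaling. CCN1 was the CCN gene with the highest level in parental cells.

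CCN2, also known as CTGF or connective tissue growth factor, promotes matrix production and is a marker of fibrosis. It lies on chromosome 6 from 131948176 to 131951372 (GRCh38, reverse strand). Its parental values were 3.56, 3.41 and 3.50 CPM and its knockout values 469, 473 and 460 CPM. The libraries of each group were again close together and the groups far apart. This is a 134-fold rise, or 7.06 on the log2 scale, with an SE of 0.061 (edgeR, adjusted p = 5.24e-27). With total counts only the log2 fold change was 6.64, so here too the SE does not cover the choice of scaling. The parental count of CCN2 was 1.09% of its knockout count. Among the 3251 genes with at least 20000 counts on average in knockout libraries, the 20 that kept the lowest part of it in parental libraries kept a median of 0.586%. With that part subtracted, the log2 fold change of CCN2 was 8.18, so the size of its fold depends on a small parental level. RefSeq places an antisense RNA, CCN2-AS1, across the gene, and since no label names a stranded kit, reads of the 2 strands may not be told apart.

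The promoter of CCN2 is shown because CCN2 is widely read as a TEAD target, and TEAD factors bind the letters GGAATG. The bases from 250 to 2 before the RefSeq start of CCN2 (GRCh38.p14, chr6:131951374-131951622, reverse strand, printed 5′ to 3′ along the gene) follow, with each GGAATG in capitals.
CCN2: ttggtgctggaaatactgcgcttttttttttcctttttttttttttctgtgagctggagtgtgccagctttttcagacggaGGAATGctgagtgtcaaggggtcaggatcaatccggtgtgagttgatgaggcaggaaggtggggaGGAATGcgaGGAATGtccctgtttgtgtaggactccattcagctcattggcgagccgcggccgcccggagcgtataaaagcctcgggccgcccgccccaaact
The hexamer occurs 3 times, all on the strand of the gene, beginning 169, 104 and 95 bases before the start. Searched on both strands, GGAATG is in the 250 bases before the start of 11.9% of 35116 RefSeq promoters, and 29 of them, or 0.0826%, hold it 3 or more times. The same window of CCN6, the other of 2 members whose promoter was matched, holds it once. CAGAC, letters bound by SMAD factors, occurs once before CCN2 and not before CCN6, and 13345 of the 35116 promoters hold it. TATAAA occurs once before CCN2, against 10.7%, and TGANTCA, bound by AP-1, in neither, against 6.57%. The repeat GGAAGGAA, which shares GGAA with the hexamer and is of the kind that EWS-FLI1 binds, was in neither window and in 3.06% of promoters. These matches describe letters in a window, and no binding was measured.

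CCN1 and CCN2 differed in how far they rose. Within a library the ratio of their counts does not depend on the scaling, and the transcripts are of nearly the same length (2290 and 2339 bases in GENCODE 29). CCN1 had 2.42, 2.48 and 2.38 times the count of CCN2 in the parental libraries, and 0.997, 1.02 and 0.999 times in the knockout libraries. The ratio thus went from 2.43 ± 0.0509 to 1.00 ± 0.0116 (SD, n = 3 each), far beyond the spread between libraries. On the log2 scale the change was -1.27, with an exact two-sided permutation p = 0.1, the smallest that 3 against 3 libraries can give, and 0.125 after Benjamini-Hochberg adjustment over the 15 pairs of CCN genes compared. Together the family held 12.1 ± 0.193 CPM in parental and 940.4 ± 17.9 CPM in knockout libraries. With the kept part subtracted the log2 fold changes were 6.16 for CCN1 and 8.18 for CCN2, further apart than the 5.79 and 7.06 without it, so the size of the change in their ratio depends on the low parental levels. CCN2 made up 28.9% ± 0.379 of that sum in parental and 49.7% ± 0.292 in knockout libraries.

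CCN3, also known as NOV, is often found to oppose CCN2 and is expressed in neural and musculoskeletal tissue. The gene is on chromosome 8. It held 2, 2 and 8 estimated counts in the parental libraries and 106, 105 and 124 in the knockout libraries, equal to 0.00525, 0.00529 and 0.0201 CPM against 0.415, 0.405 and 0.450 CPM. The knockout libraries were alike, while 1 parental library held most of the parental counts. The rise was 5.30 on the log2 scale, with an SE of 0.36 (edgeR, adjusted p = 9.78e-12). The pooled counts of each group, divided by its summed TMM-scaled library sizes, gave a ratio of 40.9. Its 95% counting interval (exact, Clopper-Pearson) was 23.1 to 79.9. Without parental replicate 3 the log2 fold change was 6.24, and without parental replicate 1 it was 5.02. A count of 3 equals 0.00752 to 0.0117 CPM, so the parental level is at the limit of what these libraries resolve.

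CCN4, known as WISP1, was found as a gene induced by the ligand WNT1 and acts in bone and in matrix-rich tumour stroma. It is on chromosome 8 as well. The parental libraries held 4, 1 and 6 estimated counts and the knockout libraries 366, 407 and 370, or 0.0105, 0.00265 and 0.0150 CPM against 1.43, 1.57 and 1.34 CPM. The groups were far apart although the parental values scattered around the level of 3 counts. Pooled counts divided by the summed TMM-scaled library sizes gave a ratio of 152. Its 95% counting interval of 84.7 to 306 is wider than the SE below implies. The rise of 7.20 on the log2 scale, with an SE of 0.27 (edgeR, adjusted p = 2.70e-16), rests on these few parental counts. It was 6.79 without parental replicate 2 and 7.71 without parental replicate 3, where CCN2 had 7.07 and 7.08. With total counts only it was 6.78, and with the kept part subtracted 8.03, below the 8.18 of CCN2. Whether CCN4 rose further than CCN2 could not be told: their ratio differed between groups by -0.24 for CCN2 over CCN4 (exact permutation p = 0.9, 0.964 adjusted over the 15 pairs), with an SD of 1.04 among the parental libraries.

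CCN5, or WISP2, lacks the cystine knot and is often described as growth-restraining in smooth muscle and other mesenchymal cells. It lies on chromosome 20 from 44714861 to 44727811 (GRCh38, forward strand). It stood at 0.0735, 0.0635 and 0.0802 CPM in parental and at 1.59, 1.78 and 1.65 CPM in knockout libraries. The groups did not overlap and the 3 values of each lay close together. The rise of 4.52 on the log2 scale, with an SE of 0.17 (edgeR, adjusted p = 3.73e-16), was the lowest estimate of the 5 rises. Whether CCN5 rose less than CCN3 could not be told. The log2 ratio of CCN3 over CCN5 differed by 0.92 (exact permutation p = 0.3), with an SD of 0.857 among parental libraries. KCNK15-AS1, an antisense RNA that overlaps CCN5 on the reverse strand, stood at 0.0214 ± 0.00969 and 0.116 ± 0.0308 CPM (SD, n = 3 each), well under CCN5. It rose by 2.40 on the log2 scale, with an SE of 0.43 (edgeR, adjusted p = 3.40e-05). It passed the filter only through its knockout libraries and was chosen after its values were seen, so this rise is tied to being tested.

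CCN6, or WISP3, is a gene of cartilage upkeep whose loss causes a childhood joint disease. It lies on chromosome 6 from 112052813 to 112069686 (GRCh38, forward strand). The parental libraries held 15, 18 and 18 estimated counts and the knockout libraries 4, 6 and 9, that is 0.0394, 0.0476 and 0.0451 CPM against 0.0156, 0.0232 and 0.0327 CPM. All knockout values were under all parental values, but the counts are few. Pooled counts divided by the summed TMM-scaled library sizes gave a parental over knockout ratio of 1.83. Its 95% counting interval was 1.06 to 3.29. The difference was -0.87 on the log2 scale, with an SE of 0.48 (edgeR, adjusted p = 0.109). It passed as lower with libraries scaled by total count only (-1.28, edgeR adjusted p = 0.0178) and with upper quartile factors (-1.07, edgeR adjusted p = 0.0437), within a range of 0.0178 to 0.337 over 14 alternatives. Its end overlaps that of TUBE1, a tubulin gene on the opposite strand, in GENCODE 29, and TUBE1 was far more abundant at 20.3 ± 0.881 and 12.1 ± 0.682 CPM (SD, n = 3 each).

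**Figure D2:**
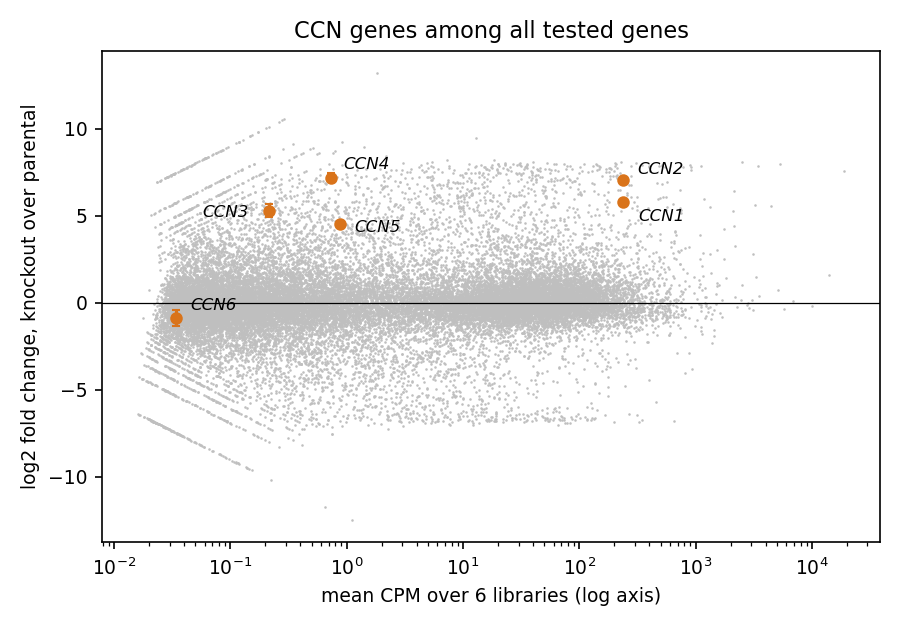
Log2 fold change against mean CPM over the 6 libraries (log axis) for all 28485 tested genes in grey and the 6 CCN genes in orange, with bars of 1 SE. CCN1 and CCN2 are high on both axes, and CCN3, CCN4 and CCN5 rose from low levels. CCN6 lies near 0 among the least abundant genes. Bars can be too short for genes of few counts.

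Levels were set side by side per length, as CPM divided by the length in kb of the longest protein-coding transcript in GENCODE 29. In parental cells the order was CCN1 at 3.70 ± 0.0680, CCN2 at 1.49 ± 0.0318, CCN5 at 0.0453 ± 0.00526 and CCN6 at 0.0163 ± 0.00156 CPM per kb, each apart from the next. CCN3, at 0.00405 ± 0.00339, and CCN4, at 0.00181 ± 0.00121 CPM per kb, overlapped at the bottom. In knockout cells CCN1, at 205 ± 4.92, and CCN2, at 199.8 ± 2.88 CPM per kb, overlapped at the top. CCN5, at 1.05 ± 0.0620, CCN4, at 0.279 ± 0.0221, CCN3, at 0.168 ± 0.00934, and CCN6, at 0.00882 ± 0.00316 CPM per kb, followed with no overlap (SD, n = 3 throughout). The order of CCN4 rests on a transcript of 5190 bases, longer than the others, and isoforms were not measured. Among 26344 tested genes with a length, 34.0% stood higher than CCN1 in parental and 0.987% in knockout cells. For CCN2 the shares were 43.4% and 1.01%, and for CCN5 84.5% and 47.3%. CCN1 and CCN2 thus went from middling to among the most abundant transcripts per length, while CCN3, CCN4 and CCN6 stayed in the lower part, with 66.8%, 60.6% and 96.4% of genes above them in knockout cells.

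Of the 15 pairs of CCN genes, 12 had ratios that separated the groups completely (exact permutation p = 0.1 each, 0.125 adjusted over the pairs), and no pair can pass 0.05 in this design. The other 3 pairs were CCN1 with CCN3, CCN2 with CCN4 and CCN3 with CCN5. CCN1 over CCN3 differed by 0.35 (exact permutation p = 1.0, also after adjustment), with an SD of 1.00 among parental libraries, and CCN3 over CCN5 by 0.92 (exact permutation p = 0.3, 0.346 adjusted), with an SD of 0.857. For these pairs the few parental counts of CCN3 and CCN4 set the spread, and a difference was not detectable at this depth. The tally holds for 0.5 added to each count. With 5 added, CCN1 over CCN4 no longer separated the groups (-0.28, exact permutation p = 0.4), while CCN1 over CCN3 and CCN2 over CCN4 did (1.48 and 0.99, exact permutation p = 0.1 each).

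CCN proteins act through integrins and co-receptors, and these genes moved in both directions. Of 9 integrin subunits reported as CCN receptors 6 rose and 3 fell. Over all tested genes 36.3% rose and 37.5% fell, so changes in both directions are common. The median of the subunits was 2.06 on the log2 scale, beside -0.06 over all tested genes. ITGAV and ITGB5, the subunits of a receptor of CCN1 and CCN2, rose from 24.1 ± 1.11 to 410 ± 27.9 CPM (4.09, SE 0.062) and from 74.9 ± 3.43 to 538 ± 19.2 CPM (2.84, SE 0.054). ITGB3, the other partner of ITGAV in CCN binding, rose from 0.381 ± 0.0489 to 18.0 ± 1.43 CPM (5.57, SE 0.095). ITGB1 and ITGA5, which form a fibronectin receptor, rose by 2.52 and 2.06, and ITGA6, of laminin receptors, rose from 13.4 to 37.8 CPM. The leukocyte and platelet subunits ITGB2, ITGA2B and ITGAM fell, with ITGB2 going from 51.0 ± 4.56 to 0.776 ± 0.0637 CPM (-6.04, SE 0.085). Of 8 other receptors and co-receptors 4 rose and 4 fell, with a median of 0.73. LRP1, an endocytic receptor that takes up CCN2, was 189 to 199 CPM in parental cells, and its knockout values were 5070, 3512 and 3724 CPM (4.39, SE 0.18). The proteoglycans SDC4 and HSPG2 rose by 4.23 and 3.86, while NOTCH1, FGFR2 and LRP6 were among those that fell (-2.16, -4.96 and -0.45). HSPG2 and IGF2R, like LRP1, were highest in knockout replicate 1.

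Of 11 binding partners 10 were tested, of which 9 rose and 1 fell (36.3% and 37.5% over all tested genes), with a median of 2.46. BMP2, with mean counts of 2.67 in parental and 15.7 in knockout libraries, passed the filter only through the latter. Its rise is thus tied to being tested. FN1, the fibronectin that CCN2 binds in the matrix, rose from 6888 ± 91.0 to 21067 ± 2456 CPM (1.61, SE 0.069). BGN (biglycan) and VEGFA, a growth factor that CCN2 can hold inactive, rose by 5.66 and 1.73. FBLN1, a matrix protein that binds CCN3, fell by 1.70 and is named because it was the single fall. Of 12 proteases reported to cut CCN proteins 11 were tested, of which 7 rose and 2 fell, with a median of 2.14. The same limit holds for the rise of ELANE, with mean counts of 3.33 in parental and 40 in knockout libraries. MMP2 rose from 48.5 ± 1.68 to 4237 ± 85.6 CPM (6.45, SE 0.060), MMP14, which activates it, by 3.19, and PLAU, which makes plasmin, by 7.29.

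Genes of the pathways known to induce CCN1 and CCN2 are read beside the same background, 36.3% of tested genes risen and 37.5% fallen, with a median of -0.06. Of 9 genes of the Hippo pathway and TEAD factors 7 rose, with a median of 1.20. The list is not split into activators and inhibitors, so this count gives no direction of pathway activity, which was not tested. LATS1, LATS2 and VGLL4 are among the risen genes, at 0.66, 1.20 and 2.33. WWTR1, which encodes the coactivator TAZ, rose from 80.3 ± 1.46 to 356 ± 13.9 CPM (2.15, SE 0.050), and TEAD1 and TEAD3 by 1.79 and 2.28. YAP1, at 199.6 ± 4.76 and 194 ± 12.9 CPM, and TEAD2, at 108.7 ± 2.54 and 112 ± 3.16 CPM, did not pass, and 2 genes of this list fell under total count scaling and under upper quartile factors. SRF and its coactivators MRTFA and MRTFB rose by 1.04, 1.56 and 0.25, the last with -0.17 under total count scaling (edgeR adjusted p = 0.0583). All 8 ligands, receptors and SMADs of TGF-beta signalling rose, with a median of 2.14, although TGFB1 and SMAD4, at 0.37 and 0.35, had -0.05 and -0.08 under total count scaling. TGFB2 rose from 0.586 ± 0.0575 to 146 ± 7.52 CPM (7.96, SE 0.079), and the receptors TGFBR1 and TGFBR2 by 4.07 and 3.13. Total count scaling moved the median of all genes by -0.42 and upper quartile factors by -0.20, and risen genes were then 33.0% and 40.5% of all calls in place of 49.1%.

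Targets of these pathways outside the CCN family are given against that background too (36.3% risen, 37.5% fallen). The lists share some genes, so their tallies are not separate. LATS2 and TGFB2 are YAP and TEAD targets that the pathway lists above also hold. The list of IGFBP-type domains shares genes with the YAP and TEAD targets as well. Of 20 YAP and TEAD targets 19 rose, with a median of 3.40, and FOXF2 alone fell, from 1.07 ± 0.0595 to 0.206 ± 0.111 CPM. The most abundant of them, CCDC80, MYOF and PTPN14, rose by 5.46, 5.99 and 1.26. Of 9 SRF and MRTF targets 8 rose, with a median of 5.60, among them the smooth muscle genes TAGLN at 6.81, CNN1 at 7.20 and ACTA2 at 2.85. MYL9, the member that did not pass, had 1.13, 0.0154 and 0.892 CPM in the knockout libraries and 0.0529 to 0.121 CPM in the parental ones. Of 10 TGF-beta and SMAD targets 10 rose, with a median of 2.74, among them LTBP2 at 7.81 and TGFBI at 7.30. The CDK inhibitor CDKN1A, which is also among them at 0.11, was lower under total count scaling (-0.31, edgeR adjusted p = 6.62e-06) and upper quartile factors (-0.10, edgeR adjusted p = 0.0480). Wnt and beta-catenin targets, listed because of the way CCN4 was found, were divided, with 5 risen and 5 fallen of 11 and a median of -0.67. Among the risen, SP5 had mean counts of 3 in parental and 18.7 in knockout libraries. It passed the filter only through the latter, so its rise is tied to being tested. AXIN2, a feedback gene of this pathway, rose from 5.84 ± 0.206 to 11.8 ± 0.416 CPM (1.01, SE 0.062), while ZNRF3 and the stem cell receptor LGR5 fell (-0.67 and -5.05). Of 12 genes for proteins with an IGFBP-type domain, the first domain of a CCN protein, 10 were tested, 9 rose and 1 fell, with a median of 4.26. IGFBP7 and IGFBP4 rose by 7.90 and 5.58, and IGFBP2, the most abundant by its mean over all libraries, fell from 906 ± 84.1 to 510 ± 6.34 CPM (-0.83, SE 0.057). IGFBPL1 and KAZALD1, risen by 0.33 and 0.41, had -0.09 and -0.01 under total count scaling.

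**Figure D3:**
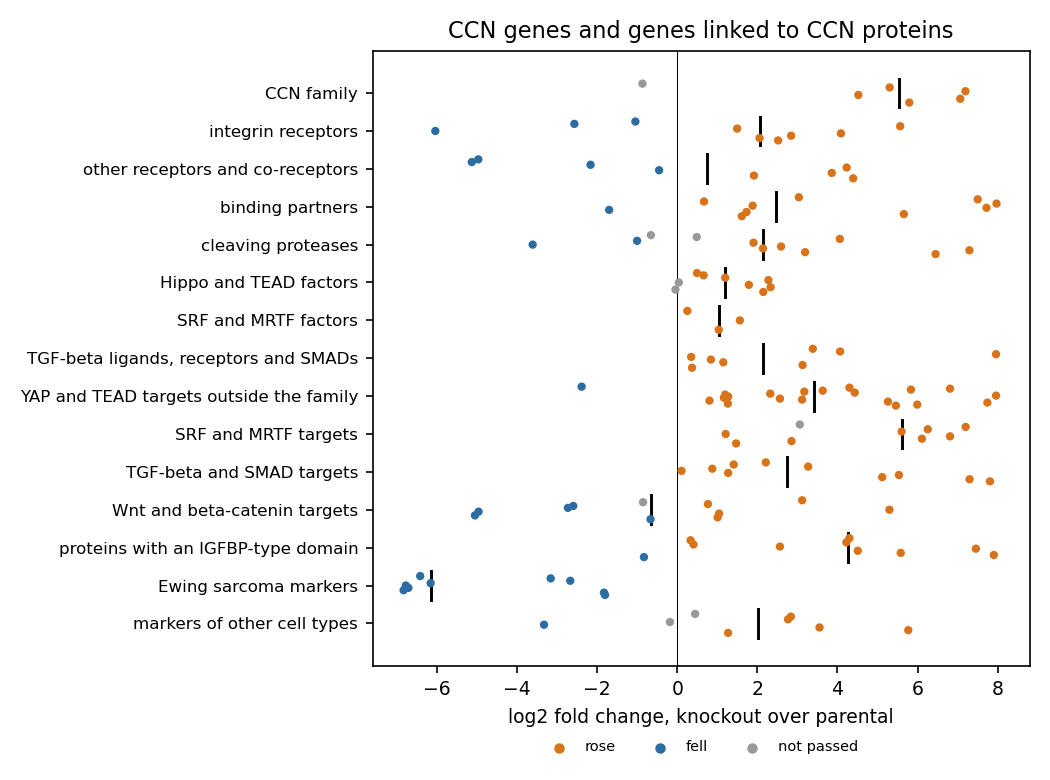
Log2 fold change of each tested gene by list, 1 point per gene, coloured by whether it rose, fell or did not pass the edgeR test, with a black line at each list's median. TGF-beta ligands, receptors and SMADs all lie to the right of 0 (TGFB1 and SMAD4 lie left of it under total count scaling) and all Ewing sarcoma markers to the left, while integrin receptors and Wnt targets lie on both sides.

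The genes nearest in profile to a CCN gene were sought for the 2 members of at least 1 CPM on average, by the Euclidean distance between log2 CPM profiles over the 6 libraries, each centred on its own mean. For CCN1 these were MVP, the major vault protein, at a distance of 0.0383, the kinase NUAK2 at 0.0785 and the Wnt ligand WNT10A at 0.0922. MVP went from 6.40 ± 0.152 to 350 ± 8.98 CPM. For CCN2 they were the guanylate-binding protein GBP3 at 0.0953, the homeobox factor PKNOX2 at 0.123 and SECTM1 at 0.131. GBP3 went from 0.574 ± 0.0186 to 76.8 ± 3.46 CPM. NUAK2 is also among the YAP and TEAD targets. With 2 groups of libraries these distances mostly describe a fold change of the same size, and are given without a test.

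The members lie at separate places in the genome, and their nearest protein-coding neighbours, 2 on each side in RefSeq, were followed as well. Of 24 neighbours 22 were tested, of which 18 rose and 4 fell, beside 36.3% and 37.5% of all tested genes. Their median was 1.41 on the log2 scale. COLEC10 and ENPP2, with parental means of 0.0026 and 0.0094 CPM, passed the filter only through their knockout libraries. Both rises are thus tied to being tested. Each tested neighbour of CCN1, CCN4 and CCN5 changed by less than the CCN gene, and MOXD1 near CCN2 changed by more. COLEC10 near CCN3, at 5.81 (SE 0.53), cannot be set above or below CCN3, at 5.30 (SE 0.36), since its mean parental level of 0.0026 CPM is under that of 3 counts. Near CCN6, the genes TRAF3IP2, FAM229B and FYN rose by 3.18, 1.86 and 1.20, more than CCN6 differed. DDAH1, 2.56 kb from CCN1, rose by 1.98 (SE 0.053) and ZNHIT6, on its other side, fell by 0.24 (SE 0.051). MOXD1, 345 kb from CCN2, rose from 0.125 ± 0.0291 to 37.1 ± 1.42 CPM (8.22, SE 0.099), further than CCN2, while ENPP1, at 53.0 kb, rose by 0.98 (SE 0.059) and ENPP3 fell by 2.96 (SE 0.28). NDRG1, a stress-responsive gene 5.49 kb from CCN4, rose by 3.75 (SE 0.053) to 108 ± 2.02 CPM. KCNK15 and ADA, on either side of CCN5, rose by 3.37 and 3.36. TUBE1, next to CCN6, fell by 0.75 (SE 0.059).

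**Figure D4:**
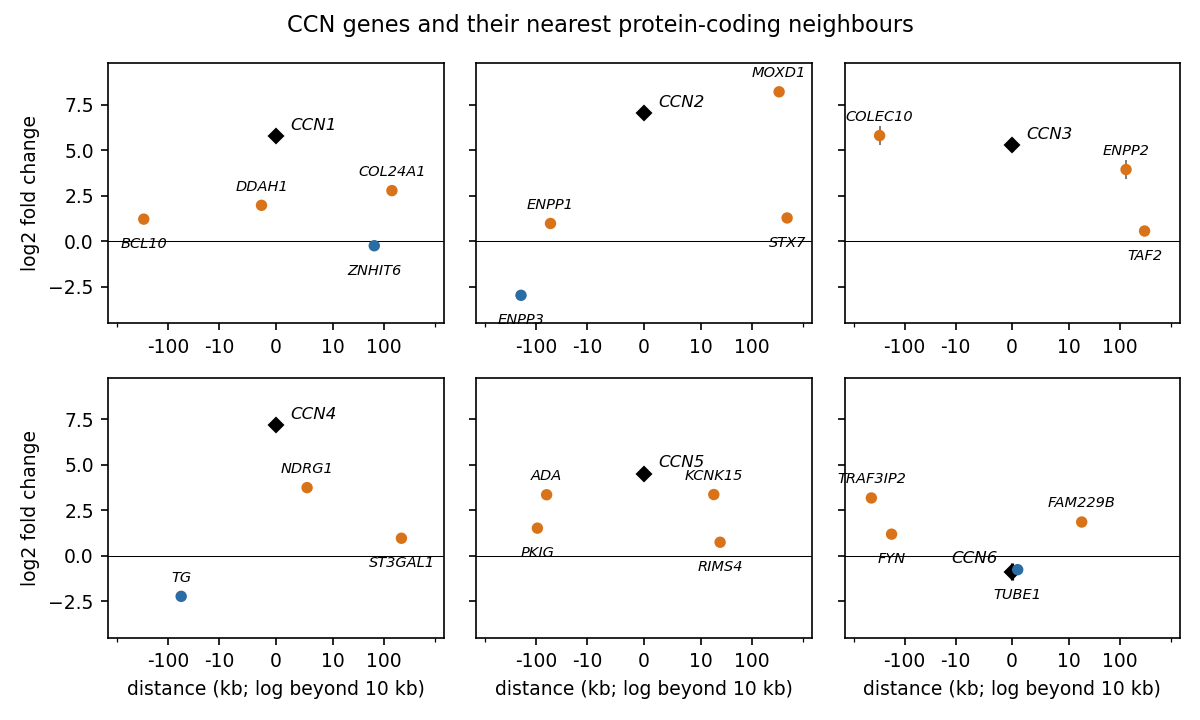
Log2 fold change (± 1 SE) of each CCN gene (black diamond at 0) and of its tested protein-coding neighbours by their distance in kb, linear within 10 kb and log beyond, orange for risen and blue for fallen genes. In the panel of CCN2 only MOXD1, at 8.22, lies above the CCN gene. In the panel of CCN6 the adjacent TUBE1 lies close to the CCN gene. Bars can be too short for genes of few counts.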

How the data were processed

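The authors deposited a table of estimated counts per gene, 1 column per library, made with kallisto 0.48.0 and the build hg38 per the submitters' processing notes. How transcripts were summed to genes, and on which annotation release, is not given in the sources used here. The kallisto method splits reads that fit several transcripts, so overlapping genes are uncertain. The estimates were rounded to whole numbers. With edgeR 4.0.16 under R 4.3.3, filterByExpr (minimum count 10, total 15) kept 28485 genes, libraries were scaled by TMM, and a robust quasi-likelihood model with genotype as its term was fitted to all 6 libraries. Two-sided p-values were adjusted over every tested gene (Benjamini-Hochberg) and called under 0.05. The biological coefficient of variation was 7.53%. The fit was also run on simulated counts with known changes. Far fewer genes changed there than in these data, so that run does not check the scaling. Counting intervals and floors cover counting error only.

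The CCN members, the gene lists and the tests were chosen with earlier results of these data known. Named genes were the members, any gene of lists of up to 9, the 3 most abundant of longer lists, the 3 nearest profiles and the neighbours. FBLN1, FOXF2, CDKN1A, IGFBPL1, KAZALD1, KCNK15-AS1, BMP2, ELANE and SP5 fall outside this rule and were chosen after their values were seen. Some genes that the rule names are not reported here. Lists are described by counts and medians, with no set test, and they hold some genes tested only through the group where they are high. Alternatives were DESeq2 1.42.0, limma 3.58.1 (voom), 3 scalings, 2 filters, a term for replicate numbers, subtraction of the part that abundant genes keep in the other group (0.586% of knockout and 0.617% of parental counts) and leaving out each library. Libraries of a group differed by more than sampling noise (chi-square per degree of freedom 11.1 to 78.1). Promoters were matched for 2 of 6 members (RefSeq, GRCh38.p14).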

Additional observations from a re-analysis of the deposited data

How the results depend on the processing

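The rises of CCN1 to CCN5 passed in each of the alternatives run. Where a filter was used, CCN3 and CCN4 were tested only through their knockout libraries. With no filter on low counts they had 5.28 and 7.17. Of 89 alternative values for the 6 members, 87 kept their direction and their side of the threshold. The exceptions were CCN6 at -1.28 with total counts only and -1.07 with upper quartile factors, which made 1 fallen member under each. With either of these scalings 2 Hippo and TEAD genes and 1 TGF-beta and SMAD target fell, and with a minimum count of 100 the risen markers of other cell types numbered 3, where fewer genes were tested; CCN6 was then not tested. Of the pair differences, adding 5 in place of 0.5 to each count gave 1.48 for CCN1 over CCN3, -0.28 for CCN1 over CCN4, 1.47 for CCN1 over CCN5, 2.75 for CCN2 over CCN3, 0.99 for CCN2 over CCN4, 2.73 for CCN2 over CCN5, -0.018 for CCN3 over CCN5, 4.73 for CCN3 over CCN6, 1.74 for CCN4 over CCN5, 6.50 for CCN4 over CCN6 and 4.75 for CCN5 over CCN6, since the added value is of the size of the low counts. Leaving out 1 library gave -0.23 to 0.65 for CCN1 over CCN3, below 0 without parental replicate 3, and -0.66 to 0.34 for CCN2 over CCN4, above 0 without parental replicate 2. With a replicate block, a term for the replicate number, CCN1 and CCN2 had 5.79 and 7.06, 5 members rose, and 10041 genes rose and 10377 fell in all; no CCN call changed. The labels do not say that a number pairs libraries, and deviations of same-numbered libraries correlated at -0.18, 0.0014 and 0.0446 over 14742 genes, and no library correlated best with its own number. The pair differences have no smaller p than 0.25 in the blocked exact test.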
